A study of Mus musculus with 82 samples.

Results

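Cells with 2 or more nascent reads on replication-dependent histone genes were compared with cells that had none. Both groups came from scGRO–seq libraries of V6.5, a mouse embryonic stem cell line, prepared in 10 batches of untreated cells grown in serum and leukaemia inhibitory factor. scGRO–seq tags the RNA that engaged polymerases extend in a nuclear run-on, adds a cell barcode to the RNA of each nucleus in its well, and so places single polymerases in single cells. A cell was a barcode of a library with at least 1000 reads, and 3726 of 5088 barcodes met this minimum, in 50 of 53 libraries. The paper reports fewer plates and fewer cells past its stricter thresholds, although from more batches. Whether each library is a separate plate, or a nucleus can count as a cell in more than 1 library, was not tested. The cells of interest were the 356 cells, 9.55% of all, with 2 or more reads on the RNA strand of 62 histone genes, and they are called chosen cells below. They were selected by these measured reads, so their histone reads describe the selection and were not tested. The chosen cells were set against matched cells, which had 0 histone reads, came from the same library and differed by at most 0.5 in log2 read number. By the paper's estimate scGRO–seq captures only a small part of nascent RNA, so a cell with 0 histone reads may still be in S phase. A partner was found for 312 chosen cells in all 10 batches, 44 chosen cells had none, and the batch was the replicate. All batches carry the same genotype and treatment, and a batch is the experiment number in the library name.

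Replication-dependent histone genes encode the core histones H2A, H2B, H3 and H4 and the linker histone H1 that package newly made DNA. They lie in clusters, carry no introns, and are transcribed in S phase from the histone locus body, a nuclear compartment organised by the coactivator NPAT, a target of cyclin E and its kinase. Their mRNAs end in a conserved stem-loop in place of a poly(A) tail, so methods that capture poly(A) do not see them, whereas run-on of nascent RNA does.

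The 62 histone genes comprised 10 genes on chromosome 3 and 52 on chromosome 13. The latter fell into a proximal cluster of 22 genes and a distal cluster of 30 genes separated by a gap of 1.49 Mb. No gene on chromosome 6 or 11 was among the 62. The stem-loop is shown for the 5 histone genes with most reads in the chosen cells, as DNA of the RNA strand in GRCm38, with the paired stem bases in capitals and the loop in lower case. H2bc18 encodes an H2B protein and its stem-loop lies at chr3:96270171-96270186 on the plus strand. The stem-loops of the linker histone genes lie at chr13:23555787-23555802 on the plus strand for H1f3, at chr13:21779837-21779852 on the minus strand for H1f5 and at chr13:23621782-23621797 on the minus strand for H1f4. That of H4c14, which encodes histone H4, lies at chr3:96262939-96262954 on the minus strand.
H2bc18: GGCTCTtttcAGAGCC
H1f3: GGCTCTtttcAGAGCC
H1f5: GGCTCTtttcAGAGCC
H1f4: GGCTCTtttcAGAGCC
H4c14: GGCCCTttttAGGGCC

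An exact stem of 6 bases that opens with GG and a loop of 4 bases that opens with TT were found near the annotated end of 57 of the 62 genes, between 4 and 7 bases before it. These held 6 different sequences, and 38 genes shared the sequence printed for H2bc18 and the H1 genes. The same stem-loop therefore marks genes of different clusters and families among those counted in the chosen cells.

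Promoters are shown for H2bc18 and H1f5, which were among the histone genes with most reads in the chosen cells. Each run is the 250 bases before the gene start in the direction of transcription, from RefSeq on GRCm38.p6, with TATAA and CCAAT on either strand in capitals. The run of H2bc18 covers chr3:96269450-96269699 on the plus strand and that of H1f5 covers chr13:21780626-21780875 on the minus strand.
H2bc18: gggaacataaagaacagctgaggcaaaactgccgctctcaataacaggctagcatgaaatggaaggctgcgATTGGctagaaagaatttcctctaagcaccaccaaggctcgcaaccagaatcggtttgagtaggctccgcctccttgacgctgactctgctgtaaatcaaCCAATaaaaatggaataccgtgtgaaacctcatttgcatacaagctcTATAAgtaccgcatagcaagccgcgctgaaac
H1f5: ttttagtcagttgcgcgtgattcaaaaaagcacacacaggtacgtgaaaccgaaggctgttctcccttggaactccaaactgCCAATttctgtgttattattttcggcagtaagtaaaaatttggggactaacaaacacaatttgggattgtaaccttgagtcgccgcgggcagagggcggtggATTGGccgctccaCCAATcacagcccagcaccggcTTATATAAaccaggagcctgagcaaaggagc

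TATAA on the same strand began at -32 from the start in H2bc18 and at -28 in H1f5, where it overlaps its copy on the other strand. Promoter windows matched 57 of the 62 histone genes, with 58 windows in all that run from 250 bases before the start to 50 after it. TATAA or its complement TTATA was found in 45 of the 58 windows (77.6%), against 24.9% of all 32851 promoter windows of that length. CCAAT or its complement ATTGG was found in 50 (86.2%), against 37.4% of all. A window held both in 37 histone promoters (63.8%), against 9.88% of all promoters. These letters are a description of the sequence and were not linked to the reads of single cells.

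The libraries held 20196981 deposited reads, of which 28.9% shared position, strand, barcode and UMI with a read of another library and were left out of every library. Such shared reads made up 2.52% to 41.3% of a batch. Each library used 96 barcodes, and 643 of 1378 pairs of libraries used the same 96. Libraries kept between 18814 and 1122860 reads. As to the label of the cells, 32 of 33 pluripotency markers had reads in the matched pairs (Esrrb had 272 in chosen and 258 in matched cells), and Sox2 had none because reads inside an overlapping gene of the same strand were counted for neither. Reads were also present for 18 of 20 fibroblast markers, for 16 of 16 primitive endoderm markers and for 7 of the 21 annotated markers of 2-cell-like cells. The part of other cell types in the results was not tested.

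Histone reads were sparse in every cell. Of the 3726 cells, 2497 had 0 histone reads, 873 had 1, 246 had exactly 2 and 110 had 3 or more, up to 11 in a cell of Exp208. The cells just inside the threshold, with exactly 2 reads, had a median of 3406 reads in all, and the cells just outside it, with 1 histone read, had 2958. Cells with 0 had a median of 2407 and cells with 3 or more had 4518. The number of histone reads in a cell thus rose with its depth, which is why the comparison was made within libraries at matched depth.

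**Figure D1:**
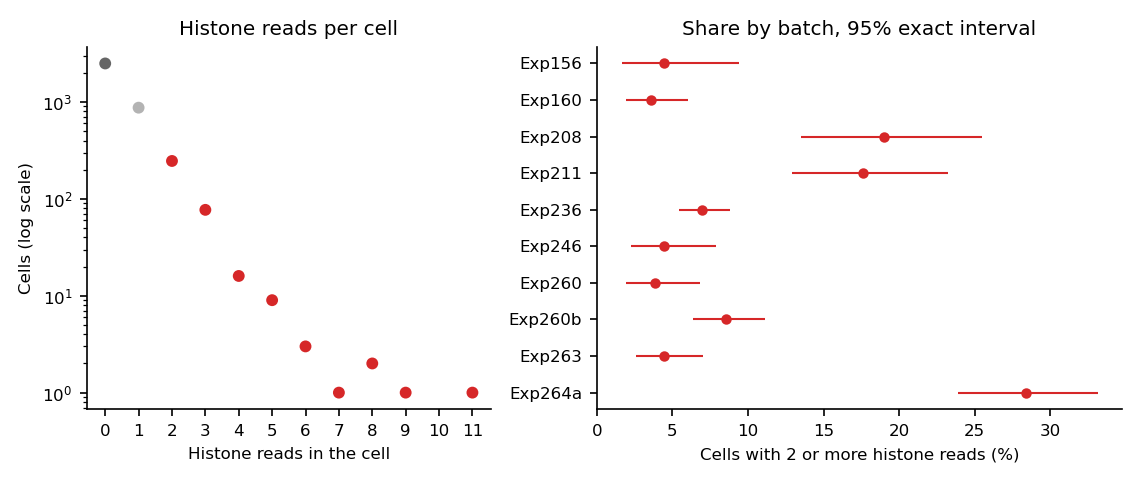
Number of cells (log scale) by histone reads in the cell, with chosen cells in red, cells with 1 read in light grey and cells with 0 in dark grey, and the percent of cells with 2 or more histone reads in each of 10 batches with exact 95% binomial intervals. Batch Exp264a, at 28.4%, lies above the other batches, and 246 of the 356 chosen cells sit at the threshold of 2 reads.

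The share of chosen cells differed between batches. It was lowest in Exp160, at 3.56% (exact 95% interval 1.91 to 6.01), had a median of 5.72% and was highest in Exp264a, at 28.4% (exact interval 23.9 to 33.2), which alone held 30.6% of the chosen cells. Exp208 (18.99%) and Exp211 (17.6%) were next, and the other batches were between 3.86% and 8.52%. The density of histone reads ran from 7.52 per 100000 reads in Exp236 to 37.3 in Exp264a, with 12.9 over all cells. Libraries within a batch differed as well, from 0 to 69.0 in Exp264a and from 2.18 to 43.1 in Exp160, which is more than the batches did, and from 0 to 23.1 in Exp211. Intervals cover counting error only and take each cell as separate.

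Linker histone and H4 genes carried most histone reads per length in the chosen cells. Of 893 histone reads, the 5 H1 genes gave 201, or 52.6 per kb of gene, and the 12 H4 genes gave 202, or 41.0 per kb. The 16 H2B genes gave 229 reads (23.5 per kb), the 12 H3 genes 137 (19.4 per kb) and the 17 H2A genes 124 (14.4 per kb). In all, 57 of the 62 genes had a read in a chosen cell.

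Single genes differed as well. H2bc18 had 67 reads in 58 chosen cells, the most of any gene, and 136 per kb. H4c14 had 51 reads in 40 chosen cells and, with 133 per kb, was close to it for its length. H1f5 had 51 reads in 45 chosen cells, or 64.2 per kb, and H1f3, another linker histone gene, also had 51, in 43 cells. H1f4 followed with 42 reads in 41 cells. H2bc18, H1f3 and H1f5 had such reads in 9 of 10 batches and H4c14 in 7.

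Most chosen cells did not owe their place to a single gene. Reads lay on 2 or more histone genes in 326 of the 356 cells, in 2 or more of the 3 clusters in 205, and in all 3 in 20. Reads of 2 or more histone families were found in 268 cells, and 118 cells had a read on chromosome 3. These counts describe the selection, and they were not set against what a random draw of the same reads would give. Reads with mapping quality under 20 made up 21.6% of the histone reads of chosen cells. When reads of a cell with the same UMI and strand within 50 bp counted once, 344 of the 356 cells stayed at 2 or more.

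**Figure D2:**
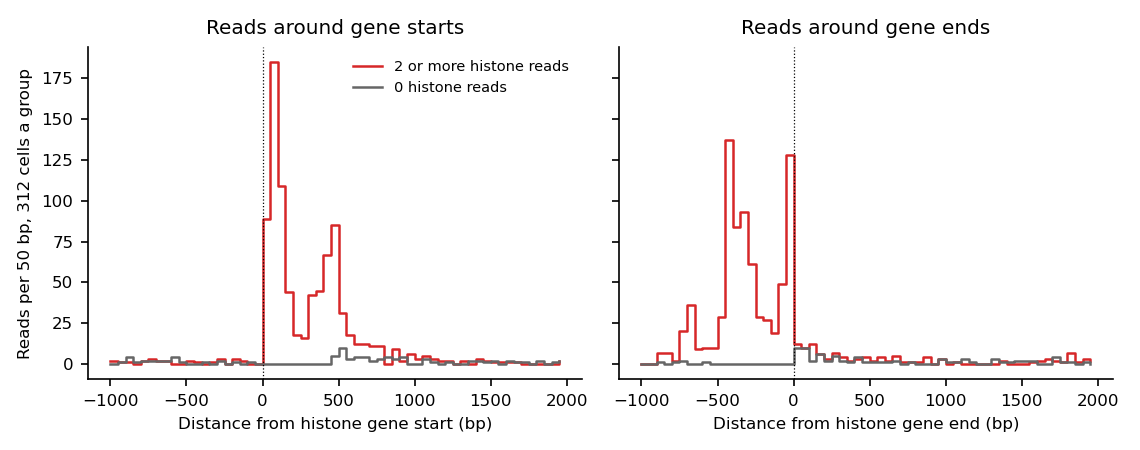
Reads per 50 bp on the RNA strand around the starts and ends of the 62 histone genes, summed over 312 chosen cells (red) and 312 matched cells (grey), by distance in bp. The matched cells are at 0 inside the genes by selection, the chosen cells peak at 185 reads in the bin that begins 50 bp after the start, and past the gene end both lines are low and cross more than once.

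The reads of chosen cells were not spread evenly along histone genes. In the 312 matched pairs they were most frequent in the bin from 50 bp after the start, with 185 reads, against 89 in the first 50 bp and 109 in the bin from 100 bp. In the last 50 bp before the gene end there were 128 reads. These genes are short, so a read can enter both panels of the profile.

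The 5 kb past the histone gene ends, which the rule did not use, held a similar total in both groups. Per 100000 reads, chosen cells had 0 in the lowest batch, a median of 9.46 and 14.3 in the highest, and matched cells had 2.41, 9.52 and 16.7. The ranges overlapped, with 144 reads in chosen and 139 in matched cells, and means of 8.25 ± 5.07 and 9.58 ± 4.87 (SD, n = 10 batches). Chosen cells were higher in 3 of 10 batches. Within the 5 kb the reads were not divided alike in the groups. Up to 1 kb past the ends chosen cells had 84 reads and matched cells 52, with a lowest, median and highest batch of 0, 5.53 and 12.6 per 100000 against 0, 2.93 and 4.72, and chosen cells were higher in 8 of 10 batches, lower in 1 and equal in 1. Over the rest of the 5 kb they had 60 reads against 87 and were lower in 8 of 10 batches. The ranges overlapped. The split at 1 kb was chosen after the profile was seen, so these counts are a description with no test.

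By histone reads in the cell, the density over the whole 5 kb was 8.19 per 100000 reads for 0, 7.10 for 1, 8.48 for exactly 2 and 10.2 for 3 or more. These values pool all cells of all batches without matching. Batches differ in their share of chosen cells, so a part of the batch in these values cannot be told apart. Antisense reads in the 1 kb before the starts numbered 14 in chosen and 13 in matched cells.

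Histone clusters held out of the selection ask whether cells with reads on 1 cluster also had more reads on another, in values that the choice did not use. Cells were chosen anew by 2 or more reads on chromosome 13, matched to cells with 0 there, and read out on chromosome 3. Over 10 batches the chosen cells had 0 histone reads per 100000 on chromosome 3 in the lowest batch, a median of 0 and 5.78 in the highest, whereas the other cells had 0, 0.525 and 9.08. The groups overlapped, and chosen cells were higher in 3 batches, lower in 3 and equal in 4. In 253 pairs there were 33 reads in chosen and 29 in other cells, a ratio of 1.09 (exact 95% interval 0.639 to 1.85), and the difference over batches was -0.42 ± 3.56 (SD, n = 10, exact two-sided sign-flip test, p = 0.781). The interval covers counting error only, and it is wide enough to hold both equality and a rise by over 1.5 times. Exp264a alone held 15 of the 33 reads and 20 of the 29, and without it the counts were 18 and 9, a ratio of 1.92. Without any other single batch the ratio was between 0.944 and 1.16.

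The reverse choice, on chromosome 3 with chromosome 13 as the readout, left 16 pairs in 2 batches, with 10 reads in chosen and 20 in other cells, and its smallest possible exact p was 0.5. Within chromosome 13, cells chosen on the distal cluster had 40 proximal reads against 38 in 137 pairs, a ratio of 1.03 (0.641 to 1.64, exact sign-flip p = 0.5, 6 batches). Cells chosen on the proximal cluster had 32 distal reads against 22 in 43 pairs, a ratio of 1.46 (0.820 to 2.63, exact sign-flip p = 0.625, 4 batches, smallest possible p 0.125). In this last choice Exp211 held 13 of the 32 reads and 2 of the 22, and without it the counts were 19 and 20, a ratio of 0.953, whereas without Exp264a they were 21 and 9, a ratio of 2.34. The second and the fourth choice could not have passed 0.05 with their number of batches. With cells chosen by 1 or more reads, the ratios between chromosomes were 1.02 (0.734 to 1.41) from 13 to 3 and 1.09 (0.861 to 1.39) from 3 to 13. Within chromosome 13 they were 0.905 (0.707 to 1.16) from distal to proximal and 1.02 (0.816 to 1.28) from proximal to distal. At these counts the held-out reads did not settle whether the clusters are read together in a cell, and the cells are described by their histone reads.

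This result depended on the reads shared between libraries. With all deposited reads counted, the ratio from chromosome 13 to 3 was 1.43 (exact sign-flip p = 0.797, 10 batches), and 1.11 without Exp236. From chromosome 3 to 13 it was 1.51 (exact sign-flip p = 0.125, the smallest possible over 4 batches). From distal to proximal it was 2.12 (1.68 to 2.69, exact sign-flip p = 0.0469, higher in 6 of 9 batches). From proximal to distal it was 2.11 (1.68 to 2.67, higher in 7 of 7 batches, p = 0.0156, the smallest the exact sign-flip test can give). A read that is listed in several libraries then counts in a cell of each, so the cells of different libraries are not separate observations. Each shared read was also counted once, in the library whose barcode had most reads. The ratios in the same order were then 1.01, 0.892, 1.37 (0.934 to 2.01) and 1.60 (1.07 to 2.42). The last interval lies above 1, but it covers counting error only, with 67 reads in 32 chosen cells and 41 in 27 other cells. Over its 4 batches the last choice was higher in 3 and lower in 1 (exact sign-flip p = 0.625). That last ratio was 1.08 without Exp211. The tests of the second and the fourth choice, over 2 and 4 batches, could again not reach 0.05.

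**Figure D3:**
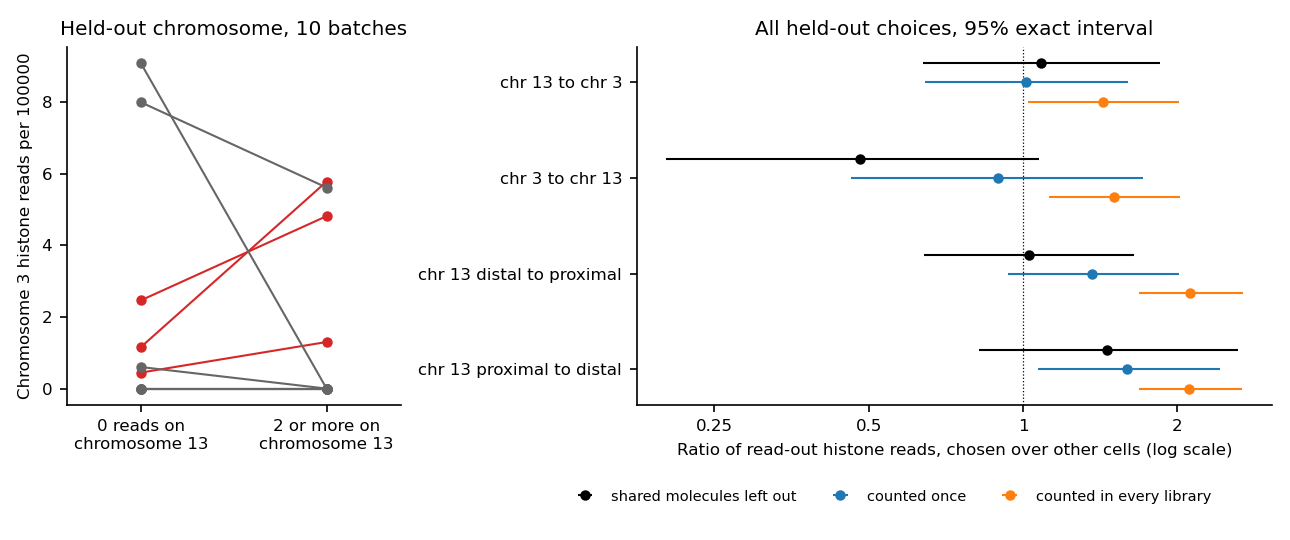
Left, histone reads per 100000 on chromosome 3 in cells with 0 and with 2 or more reads on chromosome 13, 1 line a batch (red where the chosen cells are higher, overlapping lines at 0), and right, the pooled ratio of held-out histone reads with its exact 95% interval on a log axis for 4 choices of clusters and 3 treatments of reads shared between libraries. With shared reads left out (black) all 4 intervals include 1, and with every deposited read counted (orange) all 4 lie above 1. The intervals pool reads over cells and batches and cover counting error only.

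Outside the histone genes, 6086 genes with at least 50 reads were compared with limma, and Gpr158, an orphan receptor gene, was the gene that passed an adjusted p of 0.05. It was higher in chosen cells, and no gene was lower, so that 0.0164% of genes were called. At an unadjusted p under 0.05, 97 genes were higher (1.59%) and 123 lower (2.02%), 3.61% in all. The median log2 fold change over all genes tested was -0.0058. Among the genes named here the standard errors ran from 0.078 to 0.37 on the log2 scale.

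**Figure D4:**
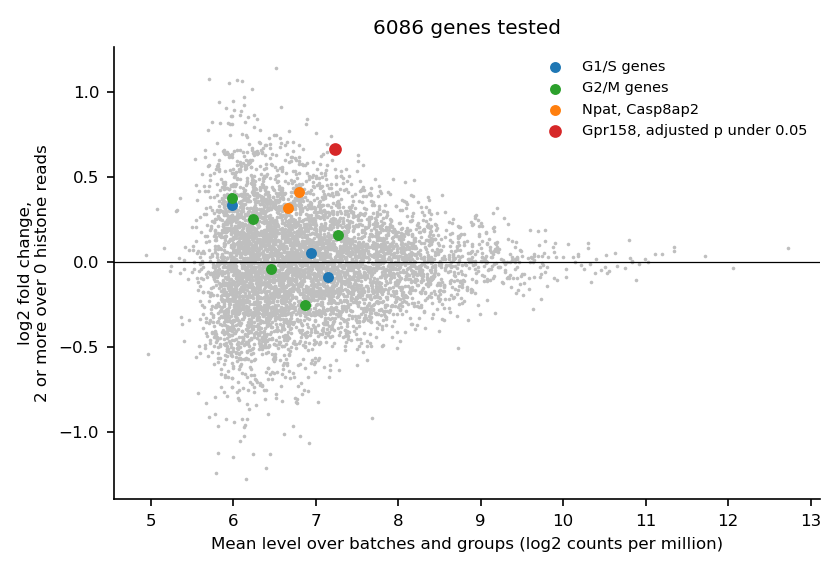
Log2 fold change of chosen over matched cells against mean level for the 6086 genes tested, 1 point a gene, with the tested G1/S genes in blue, G2/M genes in green, Npat and Casp8ap2 in orange and Gpr158 in red. The points centre on 0 at every level, widen at low levels, and the coloured cell cycle genes lie inside the cloud.

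Gpr158 (chr2:21367567-21830544, GRCm38) had 555 reads in chosen and 325 in matched cells, with a log2 fold change of 0.67 ± 0.13 (SE, limma adjusted p = 0.00625). Per 100000 reads its lowest, median and highest batch were 0, 2.87 and 455 in chosen cells and 0, 1.50 and 265 in matched cells. The groups overlapped, chosen cells were higher in 5 batches and lower in 3, and Exp208 stood far above the others in both groups. Of its 2377 reads 83.4% fell in a single 50 bp bin of an intron, and 499 of the 505 such reads of chosen cells were in Exp208. The commonest read there is shown in capitals within 100 bases of the plus strand, chr2:21493275-21493374, because most Gpr158 reads lie there.
Gpr158: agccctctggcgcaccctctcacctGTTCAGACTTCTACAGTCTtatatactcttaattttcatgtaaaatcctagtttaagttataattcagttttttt

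That read is 19 nt long and 675 of the 1982 reads of the bin had its ends. The opening letters of the read resemble an adapter of small RNA libraries, and whether the stacked reads are RNA of Gpr158 was not tested, so its counts stand only for reads placed there. Outside the bin Gpr158 had 50 reads in chosen and 34 in matched cells. Without Exp208 its log2 fold change was 0.36 (limma adjusted p = 0.998), and it was 0.45 (adjusted p = 1.00) when 50 bp bins with over 200 reads were left out. The call was also lost without Exp236 (0.65, limma adjusted p = 0.245), Exp260b (0.64, adjusted p = 0.0908) or Exp264a (0.63, adjusted p = 0.0688), which had 0 reads in the bin, with a log2 fold change close to that with all batches. Over 32 alternatives the limma adjusted p ran from 1.66e-19 to 1.00, and 18 of them kept the call. Its log2 fold change turned to -0.14 (limma adjusted p = 0.998) on reads with mapping quality of at least 20, and it was 0.027 (adjusted p = 0.992) in cells with 3 or more histone reads.

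The next genes by p did not pass the adjustment, and limma gave each an adjusted p over 0.1. Higher in chosen cells were Aasdh (1.14 ± 0.34 on the log2 scale, 56 against 23 reads), Calcr, the calcitonin receptor gene (1.07 ± 0.33, 41 against 25), Gpatch2l (1.07 ± 0.35, 39 against 19) and Nexmif, on the X chromosome (0.65 ± 0.21, 156 against 97). Aasdh was higher in 9 of 10 batches, from a lowest of 1.97 through a median of 3.85 to 12.6 reads per 100000 in chosen cells and 0, 1.72 and 3.00 in matched cells. The ranges overlapped.

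On the lower side Eipr1 had 114 reads in chosen and 206 in matched cells (-0.92 ± 0.22, limma adjusted p = 0.120), of which Exp208 held 35 and 121, and its change was -0.25 without that batch. Tspan7, a tetraspanin gene (-1.21 ± 0.33, 28 against 65 reads), Pde9a, a phosphodiesterase gene (-1.27 ± 0.35, 22 against 43), Tbce, a tubulin cofactor gene (-1.13 ± 0.33, 28 against 53) and Ano3 (-1.07 ± 0.31, 42 against 72) had adjusted p of 0.620 or more. Ano3 was lower in 10 of 10 batches, with 0, 2.64 and 4.37 reads per 100000 as the lowest, median and highest of chosen cells and 3.48, 5.77 and 17.98 of matched cells. The 2 ranges still overlapped.

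No tested gene that marks the G1/S transition or G2/M passed the adjusted p of 0.05 in limma. Cells with 0 histone reads can include S phase cells, so this does not compare S phase with other phases. Of the G1/S markers, the origin recognition gene Orc1 had 70 reads in chosen and 72 in matched cells (log2 fold change -0.09 ± 0.28), the replicative helicase gene Mcm6 had 67 and 63 (0.05 ± 0.28) and the cyclin gene Ccne1 had 28 and 22 (0.34 ± 0.37). Ccne2, with 17 and 20 reads, was too low to test. In the summed reads of these 4 genes, chosen cells had 2.38, 11.3 and 31.5 per 100000 as the lowest, median and highest batch and matched cells had 9.87, 11.5 and 35.5, so the groups overlapped. Chosen cells were higher in 3 batches and lower in 7, with a log2 ratio of -0.34 ± 0.69 (SD, n = 10 batches). This mean weighs batches alike, from Exp160 (1 and 5 reads, -1.89) to Exp236 (88 and 81, 0.07). Over all batches the sums were 182 and 177 reads.

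Of the G2/M markers, 5 were tested and 0 of 5 passed. Wee1, the kinase that restrains entry into mitosis, had 45 reads in chosen and 38 in matched cells (0.25 ± 0.32), the mitotic kinase gene Cdk1 had 41 and 52 (-0.25 ± 0.32) and the cyclin gene Ccnf had 80 and 70 (0.16 ± 0.28). Nusap1, a spindle gene, had 37 and 33 reads (-0.04 ± 0.34), the mitotic kinase gene Aurka had 30 and 20 (0.38 ± 0.36), and Ccna2 had 17 and 22 and was not tested. The sums of the 6 genes were higher in 5 of 10 batches, with a median of 17.9 per 100000 in chosen and 16.3 in matched cells. The log2 ratio was 0.24 ± 0.61 (SD), again with batches weighed alike. It was highest in Exp246 (8 and 3 reads) and Exp260 (6 and 2), and -0.12 in Exp236 (96 and 101). Over all batches the sums were 250 and 235 reads.

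Genes that act on histone transcription and processing were measured at low levels. Npat had 64 reads in chosen and 44 in matched cells (0.32 ± 0.30, limma adjusted p = 0.998). Casp8ap2, whose protein also belongs to the histone locus body, had 60 and 41 (0.41 ± 0.32, adjusted p = 0.998) and was higher in 9 of 10 batches, with 0, 4.39 and 12.6 reads per 100000 as the lowest, median and highest of chosen cells and 0, 2.70 and 10.4 of matched cells. Slbp, which encodes the protein that binds the stem-loop, had 20 and 22 reads and was not tested. Neither tested gene moved by more than 1.5 times its standard error.

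In the 16 gene lists examined, 0 members passed the adjusted p of 0.05 in either direction, where 0.0164% of all genes did. Of the 23 tested genes of the list of histone locus body, histone mRNA processing and histone chaperones, 10 were above 0 and 13 below, with a median log2 fold change of -0.0050. Pou2f1, which encodes a factor that binds octamer elements of H2B promoters, had 238 and 230 reads (0.00 ± 0.16). Of 3 tested replication-independent histone variants, whose genes are not tied to S phase, the median was 0.42, and the most read, Macroh2a1, had 71 and 66 reads (-0.09 ± 0.30). This median turned to -0.13 without Exp236 and to -0.09 with genes of at least 20 reads, and the summed reads of all 12 variants were higher in 5 of 10 batches (log2 ratio 0.07 ± 0.47, SD).

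The longer lists of replication, E2F targets and G2 and mitosis had medians within 0.1 of that of all genes on the log2 scale. The study's G1/S and G2/M markers had medians of 0.05 over 3 tested genes and 0.16 over 5. For replication licensing and fork genes the median was 0.03 over 32 tested, 19 of them above 0, and Pola1, the catalytic subunit gene of polymerase alpha, had 380 and 429 reads (-0.19 ± 0.11) and was lower in 9 of 10 batches. For E2F targets and nucleotide synthesis it was 0.07 over 33, and E2f3, a factor that drives S phase genes, had 283 and 296 reads (-0.10 ± 0.14). The G2 and mitosis list had a median of -0.0087 over 41 genes, 20 of them above 0, and Top2a, the topoisomerase gene, had 213 and 218 reads (-0.10 ± 0.16). The summed reads of chosen cells were higher in 3 of 10 batches for the replication list (log2 ratio -0.07 ± 0.26, SD), in 4 for the E2F list (0.0063 ± 0.17) and in 3 for the G2 and mitosis list (-0.05 ± 0.20).

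DNA damage and replication stress genes had a median of 0.12 over 23 tested, with 18 above 0, where 2986 of all 6086 genes were above 0. The summed reads of all 33 genes of the list were 2320 in chosen and 2016 in matched cells. With each batch of equal weight the log2 ratio was 0.02 ± 0.15 (SD). Chosen cells were higher in 6 of 10 batches, among them Exp236 (1132 and 995 reads, 0.13). They were lower in 4, which had 37 to 49 reads in a group. The median was 0.049 without Exp236 and 0.0038 in cells with 3 or more histone reads. Rif1, a regulator of replication timing, had 408 and 368 reads (0.12 ± 0.11). For cohesin the median was -0.03 over 13, and Stag1 had 263 and 315 reads (-0.32 ± 0.13), with an unadjusted limma p of 0.0183 and an adjusted p of 0.998. At an unadjusted p under 0.05 the lists held 0 to 3 genes in a direction, where 1.59% of all genes were higher and 2.02% lower.

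Lists of cell identity and growth had 0 called genes as well. Pluripotency genes had a median of -0.0080 over 17 tested, and Jarid2, a Polycomb cofactor gene and the most read of them, had 930 and 949 reads (-0.03 ± 0.09). The 2 tested genes of the Myc and immediate early list were both below 0, with a median of -0.22, Max among them (72 and 73 reads, -0.18 ± 0.28). The summed reads of all 23 genes of that list were 252 in chosen and 247 in matched cells. Chosen cells were the deeper in 209 of 312 pairs, so these sums do not show a rise. By batch, chosen cells were higher in 7 of 10 and lower in 3 (mean log2 ratio 0.14 ± 0.39, SD). That mean gives each batch equal weight, from Exp156 with 5 and 3 reads to Exp236 with 88 and 84. For 38 cytosolic ribosomal protein genes the median was -0.02, with Rpl4 at 1144 and 1133 reads (-0.07 ± 0.08), and for 35 nucleolar ribosome biogenesis genes it was 0.07, with Nop56 at 1342 and 1273 reads (0.00 ± 0.08). The standard errors of Rpl4 and Nop56 were the smallest among the genes named here.

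Markers of other cells gave medians close to that of all genes. These were -0.03 over 8 primitive endoderm markers, led by the laminin gene Lamc1 (238 and 241 reads, -0.08 ± 0.16), and -0.0025 over 4 fibroblast markers, led by the fibronectin gene Fn1 (348 and 351 reads, -0.10 ± 0.13). Of the 2-cell-like markers only Zfp809 had enough reads to test (24 and 28, -0.07 ± 0.35). Per 100000 reads, summed fibroblast markers had a lowest, median and highest batch of 28.2, 45.3 and 69.3 in chosen cells. Matched cells had 23.97, 34.7 and 62.2. Chosen cells were higher in 8 of 10 batches and lower in 2. The lower ones were those with most pairs, Exp236 (173 and 199 reads, 62 pairs) and Exp264a (100 and 89 reads, 90 pairs). Over all batches the sums were 593 and 564 reads. The part of these markers in other results was not tested.

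Read classes, 12 in number, were compared as shares of each group's reads, and 0 of 12 passed an adjusted p of 0.05. Promoter-proximal reads, within 500 bp of a transcription start, made up 1.94%, 2.32% and 3.23% of the reads of chosen cells in the lowest, median and highest batch and 1.54%, 2.14% and 3.13% of those of matched cells. The ranges overlapped, and chosen cells were higher in 9 of 10 batches, by 0.16 ± 0.14 on the log2 scale (SD, n = 10, exact two-sided sign-flip test, p = 0.00781, adjusted over 12 classes 0.075). Mitochondrial reads made up 0.0819%, 0.206% and 1.76% in chosen and 0.0599%, 0.180% and 1.67% in matched cells. They too were higher in 9 of 10 batches, by 0.19 ± 0.20 (exact sign-flip p = 0.0156, adjusted 0.075).

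**Figure D5:**
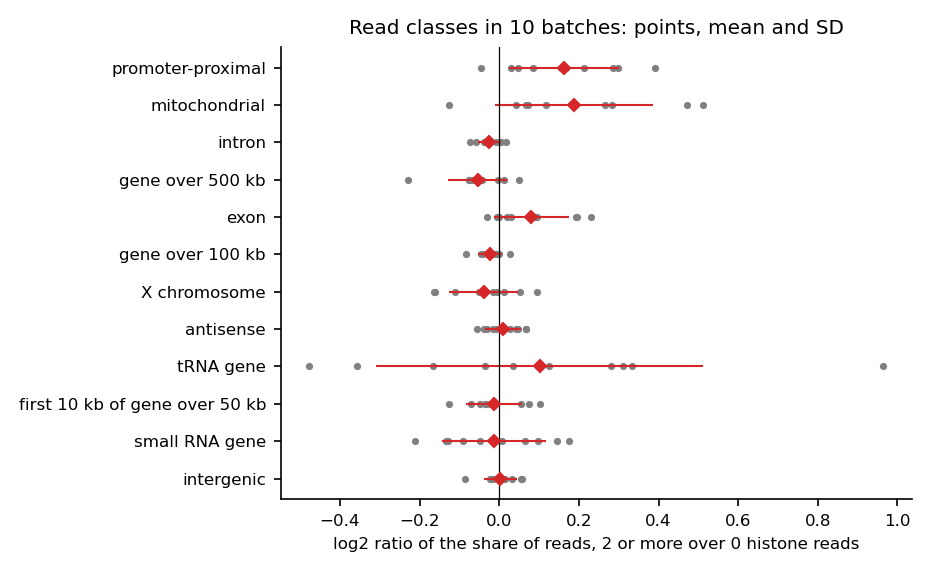
Log2 ratio of the share of reads in chosen over matched cells for 12 read classes, with a grey point for each of 10 batches and the mean and SD in red. Promoter-proximal and mitochondrial reads lie to the right of 0 in 9 of 10 batches, and the points of most other classes lie on both sides of 0.

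Exon reads were 8.12% in chosen and 7.67% in matched cells on average (log2 ratio 0.08 ± 0.10), intron reads 36.0% and 36.6% (-0.02 ± 0.03) and reads in genes over 500 kb 2.53% and 2.63% (-0.05 ± 0.07), each with an adjusted p of 0.075 in the exact sign-flip test. Genes over 100 kb had an adjusted p of 0.0820 and were lower in 9 of 10 batches. The other classes, which were antisense, intergenic, X chromosome, tRNA gene and small RNA gene reads and the first 10 kb of genes over 50 kb, had adjusted p of 0.298 or more. Chosen cells remained slightly deeper after matching, with the deeper cell in 209 of 312 pairs and a mean log2 difference of 0.10, and the part of this difference in the shares was not tested. With pairs at most 0.25 apart the promoter-proximal ratio was 0.17 (adjusted p = 0.0352, exact sign-flip) and the mitochondrial ratio 0.23 (0.0352), and leaving out 1 batch brought an adjusted p of 0.0469 for promoter-proximal reads (without Exp236), for mitochondrial reads (without Exp264a) and for genes over 100 kb (without Exp156). With all cells with 0 histone reads in place of matched ones the promoter-proximal ratio was -0.00077.

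A difference in the breadth of transcription was not detected at equal depth. Among 1000 reads drawn from a cell, chosen cells had 351, 385 and 547 genes as the lowest, median and highest batch mean and matched cells had 346, 391 and 535. The mean difference was 0.10 ± 7.76 genes (SD, n = 10, exact two-sided sign-flip test, p = 0.965), with chosen cells higher in 6 of 10 batches. Read quality was close in both groups, with 13.9% of the other reads under mapping quality 20 in chosen and in matched cells and 15.97% and 17.16% of reads at 18 nt or less.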

How the data were processed

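For each library of V6.5 mouse ES cells the authors deposited a list of mapped scGRO–seq reads. Per the study's methods, the authors removed adaptors with Cutadapt, split barcodes with Flexbar, mapped to mm10 with bowtie2 and removed duplicates with UMI-tools. The deposited score is the mapping quality and was used only as a filter. Reads were counted at the polymerase position, on curated RefSeq genes of GRCm38, with histone genes and the 5 kb past them left out. Reads in 2 overlapping genes or in small RNA genes were not counted for a gene. Reads listed in more than 1 library were left out. Counts were summed per batch and group and fitted with limma voom 3.58.1 (R 4.3.3), with the batch as a block, for genes of at least 50 reads. The fit was tested on simulated data. Log2 ratios of the summed reads of a list are means over batches of equal weight. Batch differences of shares and of held-out reads were tested by exact sign flips, in Python with numpy 2.4.6. Members and lists were chosen with earlier results of these data known. Named were genes past adjusted p 0.05, the 5 smallest p in each direction, the study's G1/S and G2/M markers, the most read members of each list (the top 1 of 3 is printed), Npat, Slbp and Casp8ap2, and the leading histone genes.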

Additional observations from a re-analysis of the deposited data

Results flagged for a closer look

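For 42 measures, a batch was singled out where its gap to the nearest of the others was large against the whole range. Most measures had 10 batches, but held-out choices had as few as 2, at which the rule could not be met. Chance does so for about 1 in 20 groups, and 5 of 42 measures were met. In Exp208 the difference of chosen minus matched cells in Gpr158 reads of the 50 bp bin was 189.574 per 100000. In Exp160 the difference in reads up to 5 kb past histone gene ends was 11.8851 per 100000, from 6 reads in chosen and 1 in matched cells. In Exp263 the difference in chromosome 3 histone reads of cells chosen on chromosome 13 was -9.07977 per 100000, from 0 and 2 reads. In Exp246 the log2 ratio of the share of reads in genes over 500 kb was -0.230351, and in the same batch that of the summed primitive endoderm markers was -1.11014.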

How the results depend on the processing

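The main count of 1 gene higher and 0 lower became 2 and 15 with 1 or more histone reads, 22 and 14 against all cells with 0 histone reads, 28 and 37 with all deposited reads, and 1 and 1 with shared reads counted once. It became 0 and 0 with 3 or more histone reads, without 50 bp bins of over 200 reads, with full histone gene spans, the library as the unit, near-duplicates counted once, pairs at most 0.25 apart, mapping quality of at least 20, genes of at least 200 reads, limma trend, and no replicate block. Leaving out 1 batch gave 0 to 1 genes higher and 0 lower.

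Held-out differences per 100000 turned to 2.83 (1 or more reads) and 10.3 (all deposited reads) for chromosome 3 to 13 and to 4.48 for distal to proximal, and rose to 14.6 for proximal to distal (both all deposited reads). In the main setting the difference for proximal to distal was 3.77, and leaving out 1 batch there gave -1.07 to 6.33.

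Among read classes, exon passed at 0.15 with all deposited reads and 0.11 with shared reads counted once. With 750 genes per cell, promoter-proximal (0.15), mitochondrial (0.22), intron (-0.027), over 100 kb (-0.029) and over 500 kb (-0.069) passed. With mapping quality of at least 20, promoter-proximal (0.17) and mitochondrial (0.28) passed, and with pairs at most 0.25 apart both passed at 0.17 and 0.23. Against all cells with 0 histone reads the promoter-proximal ratio was -0.00077. Leaving out 1 batch gave 0.14 to 0.19 for promoter-proximal, 0.15 to 0.22 for mitochondrial and -0.028 to -0.016 for over 100 kb, and these passed without Exp236, Exp264a and Exp156 in that order (adjusted p = 0.0469 each, exact sign-flip).

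Against all cells with 0 histone reads the list medians were 0.21 for G2 and mitosis, 0.33 for Myc and immediate early and 0.33 for fibroblast markers (0.40 with up to 3 matched cells), where the median of all genes was 0.22 and 0.11. Cohesin was 0.22 with 3 or more reads. Replication-independent variants were -0.093 with genes of at least 20 reads and -0.13 to 0.52 leaving out 1 batch.

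Signs of named genes turned as follows on the log2 scale. With 1 or more histone reads, Calcr was -0.32, Ccnf -0.12, Macroh2a1 0.27 and Npat -0.12. With 3 or more, Eipr1 was 0.20, Fn1 0.22, Pou2f1 0.17 and Rpl4 0.091. With all deposited reads, Aasdh was -0.031, Fn1 0.18, Macroh2a1 0.28, Nop56 -0.18 and Zfp809 0.52. Against all cells with 0 histone reads, Lamc1 was 0.12, Max 0.12, Nop56 -0.36, Pola1 0.020, Pou2f1 0.17 and Top2a 0.10. The median of all genes was 0.22 there, and each of these genes lay below it. With mapping quality of at least 20, Gpr158 was -0.14 and Mcm6 -0.69. With limma trend, Fn1 was 0.072, Nop56 -0.15 and Rpl4 0.071. Nop56 was also -0.10 with no replicate block and -0.13 with up to 3 matched cells. Leaving out 1 batch, Nop56 ran from -0.18 to 0.15 and Rpl4 from -0.11 to 0.0091.

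The causes were not tested. The 67-gene set, full spans, mapping quality, distal and proximal clusters, and counting shared reads once were chosen after seeing the data. Stag1 and Rpl4 passed the adjusted p of 0.05 in limma with 1 or more histone reads (-0.22 and -0.17) and with all deposited reads (-0.26 and -0.23), and Nop56 passed with all deposited reads and against all cells with 0 histone reads. Outside these values and the call of Gpr158, the results kept their side of the test. Sign changes numbered 154 in all, the named ones among them, and the rest lay within the spread of the value. Depth limits single genes, whose minimum was 50 reads over both groups.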
